A study of Mus musculus with 32 samples.

Results

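The response to basic fibroblast growth factor (bFGF) was measured in cultured mouse cardiac fibroblasts that had been treated with the recombinase iCre. Libraries were taken by their titles, and each bFGF library was set beside the SS library with the same replicate number. This gave 4 iCre bFGF libraries and 4 iCre SS libraries, 8 of the 32 in the series. All 32 libraries come from passage 1 cardiac fibroblasts with the genotype C57BL/6J_Pkm2fl/fl, floxed at Pkm. Pkm encodes pyruvate kinase, which makes pyruvate at the end of glycolysis. The iCre bFGF cells received 20 ng/ml bFGF for 24 h under serum starvation. The iCre SS cells received iCre and no named factor, and the labels do not spell out SS. The other groups used here are LacZ cells given bFGF, iCre cells given TGFb (10 ng/ml) or IL-1b (15 ng/ml), and LacZ cells in SS.

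Several features of the groups limit them as a model. The protocol text names TAK1fl/fl mice and also a TNFa treatment, although the genotype tag and the series title name Pkm2. The text also lists 20 ng/ml human bFGF in the growth medium that every culture had before treatment, so SS cells had seen the factor earlier and had then been without it. The labels do not name the vector, the promoter that drives iCre or the share of cells that recombined. The treatment tags of the 8 iCre libraries match their titles. Those of the LacZ libraries contradict theirs, and LacZ groups follow the titles.

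FGFs act through receptor tyrosine kinases and the adaptor FRS2 to activate the RAS, RAF, MEK and ERK kinase chain. Active ERK raises ETS transcription factors of the Etv1, Etv4 and Etv5 subfamily, AP-1 subunits and D-type cyclins. It also raises its own brakes, the Sprouty and Spred proteins and the dual-specificity phosphatases that remove phosphate from ERK. In fibroblasts bFGF is a mitogen and is known to oppose the contractile myofibroblast state that TGFb induces.

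Total counts were 26147487 to 32383855 in iCre bFGF libraries and 24425678 to 30647026 in iCre SS libraries, and the bFGF library was the deeper in 4 of 4 pairs. Levels below are CPM, read counts divided by library size and scaled by TMM factors, and fold changes are log2 of bFGF over SS ± SE from 1 edgeR fit that blocks on the replicate number. Libraries with the same number deviated together from their group means (correlation over genes 0.593, 0.365, 0.727 and 0.795 for numbers 1 to 4). Whether a number stands for a mouse, an isolation or a day is not stated, so p-values cover the spread between these samples, which may be technical. Number 4 stood apart. Its summed level over 10 fibroblast identity genes was 21300 CPM with bFGF and 23800 CPM in SS, while the other numbers had 37600 to 47200 CPM with bFGF and 48800 to 51100 CPM in SS. The largest members of this sum were Col3a1, Col1a2, Col1a1 and Vim, with means of 14600, 7760, 7680 and 4460 CPM with bFGF. Not every member was low in number 4, as Pdgfra was highest in its bFGF library, at 1410 CPM. Because number 4 stood apart, list counts are also given without single numbers.

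Pkm (ENSMUSG00000032294, chromosome 9, 59656368 to 59679375, GRCm38) stood at 720, 771, 985 and 642 CPM in iCre bFGF libraries, against 550, 382, 777 and 425 CPM in iCre SS libraries. The bFGF library was the higher in 4 of 4 pairs and the groups overlapped. The difference was 0.57 ± 0.2 and did not pass the threshold of 0.05 (adjusted p = 0.0664). Without number 4 it was again 0.57 and passed (adjusted p = 0.0283). Counts per gene sum the PKM1 and PKM2 forms, so they do not check the recombination. Map3k7, which encodes TAK1, had a mean of 123 ± 16.7 CPM (SD, n = 4) with bFGF and 112 ± 14.5 CPM in SS (adjusted p = 0.149).

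With bFGF, 1139 of 16760 genes tested rose (6.8%) and 908 fell (5.42%), so 12.2% passed at an adjusted p under 0.05. Changes of at least 2-fold were found for 416 of the genes that rose and 204 of those that fell. The direction was the same in all 4 pairs for 983 genes that rose and 823 that fell, and the groups did not overlap for 484 and 274 of them. Over all 16760 genes tested, called or not, the groups did not overlap for 1298. The median over all genes tested was -0.01. Without number 4, 2376 genes rose and 1955 fell, and these hold 1081 of the 1139 and 863 of the 908. Without number 1 the counts were 64 and 37, and without number 2 they were 54 and 36. Without the block 242 rose and 126 fell.

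Several brakes on ERK signalling rose. Of the 14 feedback inhibitors tested, 6 rose (against 6.8% of all genes) and 1 fell, with a list median of 0.75. Spry4, a Sprouty that blocks RAS activation by receptors, stood at 104, 96.6, 92.5 and 81.6 CPM in bFGF libraries and at 12.3, 10.0, 14.7 and 27.2 CPM in SS libraries. All bFGF libraries were above all SS libraries, and the SS library of number 4 was the highest of its group. The change was 2.51 ± 0.38 (adjusted p = 0.000699), a 5.68-fold difference. Spry2, a second Sprouty, rose by 0.94 ± 0.1 with groups that did not overlap, whereas Spry1 had a difference of 0.28 that did not pass (adjusted p = 0.461).

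Dusp6, the cytoplasmic phosphatase for ERK, stood at 75.2, 61.1, 66.8 and 47.8 CPM with bFGF, against 9.91, 5.9, 16.5 and 24.4 CPM in SS. It rose by 2.22 ± 0.36 (adjusted p = 0.00104) and the groups did not overlap. Dusp4, a nuclear phosphatase of the same family, stood at 373, 244, 369 and 41.1 CPM with bFGF, against 64.1, 39.6, 92.8 and 38.9 CPM in SS. Numbers 1 to 3 gained several-fold and number 4 hardly moved. Its change was 1.75 ± 0.48 (adjusted p = 0.0211) and 2.39 ± 0.41 without number 4. Dusp5, which is nuclear and specific for ERK, was higher in 3 of 4 pairs and lower in number 4 (1.46 ± 0.54, adjusted p = 0.079), and passed at 2.34 ± 0.27 without that number (adjusted p = 2e-05).

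The Spred proteins, which bring neurofibromin to RAS, were higher with bFGF in all 4 pairs. Spred1 stood at 234, 244, 224 and 194 CPM with bFGF, against 97.5, 92.0, 106 and 148 CPM in SS, without overlap. It rose by 1.02 ± 0.15 and Spred3 by 0.64 ± 0.18. Spred2 missed the threshold at 0.76 ± 0.25 (adjusted p = 0.0534) and passed without number 4. The member that fell was Lrig3, a transmembrane protein of a family known for regulating growth factor receptors, at -0.29 ± 0.09. The receptor-level inhibitors Errfi1 (0.74, adjusted p = 0.188) and Lrig1 (0.65, adjusted p = 0.0907) did not pass over all numbers. Both passed without number 4, Errfi1 at 0.9 (adjusted p = 0.0247) and Lrig1 at 0.76 (adjusted p = 0.000804). Over the list, 11 members rose without number 4, 4 without number 1 and 3 without number 2.

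**Figure D1:**
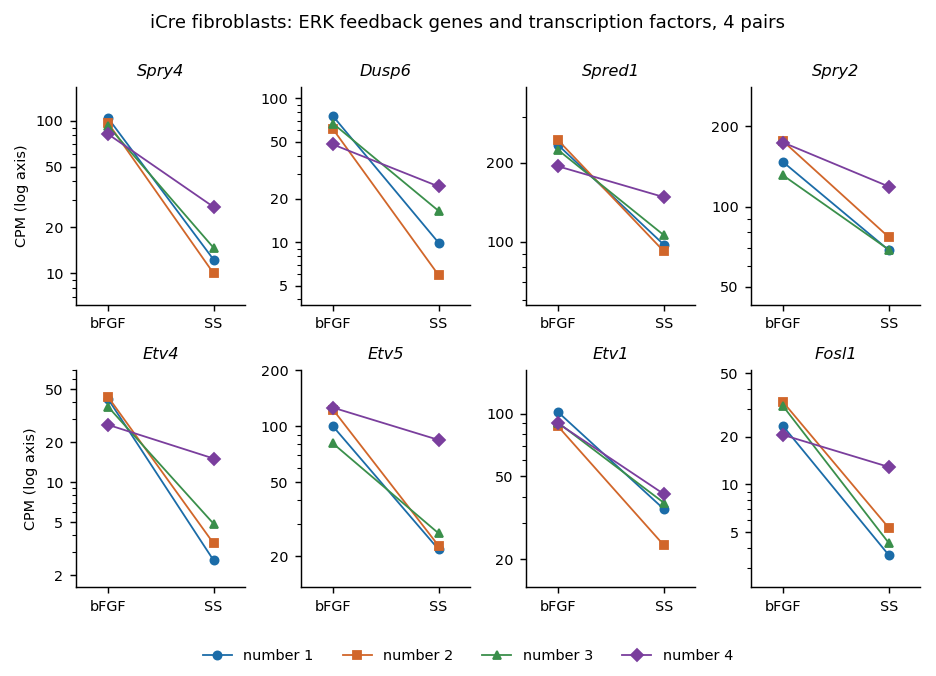
Levels of 4 ERK feedback genes (top) and 4 transcription factors (bottom) in iCre fibroblasts, in CPM on a log axis, with bFGF on the left and SS on the right and a line for each replicate number. Lines of numbers 1 to 3 are steep and close together, while number 4 has the highest SS level in Spry4, Dusp6, Spred1, Spry2, Etv4, Etv5 and Fosl1.

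Among 23 transcription factors known as growth factor targets, 8 rose and 1 fell (median 0.53), beside 6.8% and 5.42% of all genes. Etv4, an ETS factor of the subfamily downstream of FGF receptors, stood at 42.5, 44.0, 37.1 and 27.1 CPM with bFGF, against 2.59, 3.47, 4.88 and 15.1 CPM in SS. The groups did not overlap, and number 4 had both the lowest bFGF level and the highest SS level. Etv4 rose by 2.5 ± 0.66 (5.67-fold) and by 11.5-fold without number 4. Its relatives Etv1 (1.42 ± 0.36) and Etv5 (1.54 ± 0.48, adjusted p = 0.042) also rose. Etv5 stood at 100, 123, 80.9 and 126 CPM with bFGF, against 21.8, 22.8, 26.6 and 84.5 CPM in SS, so the SS library of number 4 lay above 1 bFGF library.

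Fosl1, the AP-1 subunit FRA-1, stood at 23.3, 33.0, 31.1 and 20.5 CPM with bFGF, against 3.6, 5.34, 4.29 and 12.9 CPM in SS. It rose by 1.97 ± 0.49 without overlap, 3.93-fold over all numbers and 6.63-fold without number 4. Junb (0.75), Ets1 (0.51), Klf10 (0.53) and Ier2 (0.74) rose by less, and Jund, a JUN relative linked to growth arrest, fell by 0.45 (adjusted p = 0.0616 without number 4). The transient early genes Fos (0.1, adjusted p = 0.826) and Egr1 (0.55, adjusted p = 0.454) did not pass over all numbers at this time. Without number 4 Egr1 passed at 1.09 ± 0.29 (adjusted p = 0.0131), as did Egr2 (1.64) and Egr3 (1.58). Fos still did not (0.45, adjusted p = 0.0716). Egr1 was higher in numbers 1 to 3 and lower in number 4, at 83.0 CPM with bFGF and 135 CPM in SS. Myc, at 30.3, 26.7, 32.5 and 15.2 CPM with bFGF against 15.9, 14.2, 17.1 and 20.3 CPM in SS, showed the same split. Its difference of 0.54 did not pass, and without number 4 it was 0.93 ± 0.11 (adjusted p = 2e-05). Over the list, 16 of the 23 rose without number 4, while 1 rose without number 3, 0 without number 1 and 0 without number 2.

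Cell cycle genes rose as groups. All 25 mitosis genes tested rose (median 2.07), as did 26 of 30 DNA replication genes (median 1.0), with 0 that fell in either list. Of all genes tested 6.8% rose. The mitotic kinases, spindle and kinetochore genes are transcribed late in the cycle, and many of their promoters carry a cell cycle homology region (CHR), bound by the DREAM and MuvB complexes. Replication genes are transcribed at the entry to S phase, many of them through E2F elements. The RefSeq promoter windows of GRCm38.p6, 250 bases before to 50 after the first listed start of each gene, were searched on both strands. They cover 20 of the 25 mitosis genes, 24 of the 30 replication genes and 27025 genes in all.

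The CHR letters TTTGAA stood in 15 of 20 mitosis windows (75%), in 3 of 24 replication windows (12.5%) and in 18.1% of all windows. The E2F letters, searched as TTTCCCGC, TTTGGCGC, TTTCGCGC or TTTGCCGC, stood in 1 of 20 mitosis windows (5%), in 9 of 24 replication windows (37.5%) and in 2.32% of all windows. CCAAT boxes stood in 17 of 20 mitosis windows (85%), in 14 of 24 replication windows (58.3%) and in 37.9% of all windows. In the mitosis list 16 of the 19 CHR matches began between 100 bases before and 50 bases after the start. No CHR match overlapped an E2F or CCAAT match there. In 2 replication windows E2F matches overlapped each other, and in 1 a match overlapped a CCAAT box. A match is a string of letters and not a measured site. The windows below belong to the 2 genes of each list with the smallest p among those that hold the motif, so that the letters can be read beside the genes' values. Capitals mark the CHR in Cdk1 (chr10:69352863-69353162, minus strand) and Ndc80 (chr17:71526808-71527107, minus strand). They mark E2F letters in Mcm3 (chr1:20820263-20820562, minus strand) and Mcm5 (chr8:75109259-75109558, plus strand).
Cdk1: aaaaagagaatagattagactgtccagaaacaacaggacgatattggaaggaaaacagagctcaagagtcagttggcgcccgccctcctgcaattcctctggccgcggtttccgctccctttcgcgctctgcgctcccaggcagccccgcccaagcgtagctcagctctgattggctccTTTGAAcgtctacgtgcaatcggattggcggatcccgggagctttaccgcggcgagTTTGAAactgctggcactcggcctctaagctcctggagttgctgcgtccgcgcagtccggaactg
Ndc80: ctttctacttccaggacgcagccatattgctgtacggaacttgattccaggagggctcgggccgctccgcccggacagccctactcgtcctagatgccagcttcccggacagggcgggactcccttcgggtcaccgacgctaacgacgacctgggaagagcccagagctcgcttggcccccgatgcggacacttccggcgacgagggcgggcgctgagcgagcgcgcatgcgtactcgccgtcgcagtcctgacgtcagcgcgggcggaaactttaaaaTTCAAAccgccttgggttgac
Mcm3: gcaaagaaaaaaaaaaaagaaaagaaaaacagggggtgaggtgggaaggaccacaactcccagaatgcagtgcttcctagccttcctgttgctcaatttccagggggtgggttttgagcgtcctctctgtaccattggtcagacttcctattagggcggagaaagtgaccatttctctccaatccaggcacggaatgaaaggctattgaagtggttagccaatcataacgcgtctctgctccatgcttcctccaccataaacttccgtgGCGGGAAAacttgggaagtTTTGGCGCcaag
Mcm5: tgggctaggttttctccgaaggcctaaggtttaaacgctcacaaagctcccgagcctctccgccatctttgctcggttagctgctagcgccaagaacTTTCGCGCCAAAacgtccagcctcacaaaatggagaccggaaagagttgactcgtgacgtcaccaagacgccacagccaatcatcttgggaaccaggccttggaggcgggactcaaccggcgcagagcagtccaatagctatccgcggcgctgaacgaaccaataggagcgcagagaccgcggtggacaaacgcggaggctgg
Counted from the start site, the CHR matches begin at -71 and -15 in Cdk1 and at 30 in Ndc80, where the letters lie on the other strand. The E2F matches begin at 20 and 39 in Mcm3 and at -153 and -149 in Mcm5, and those of Mcm5 overlap.

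**Figure D2:**
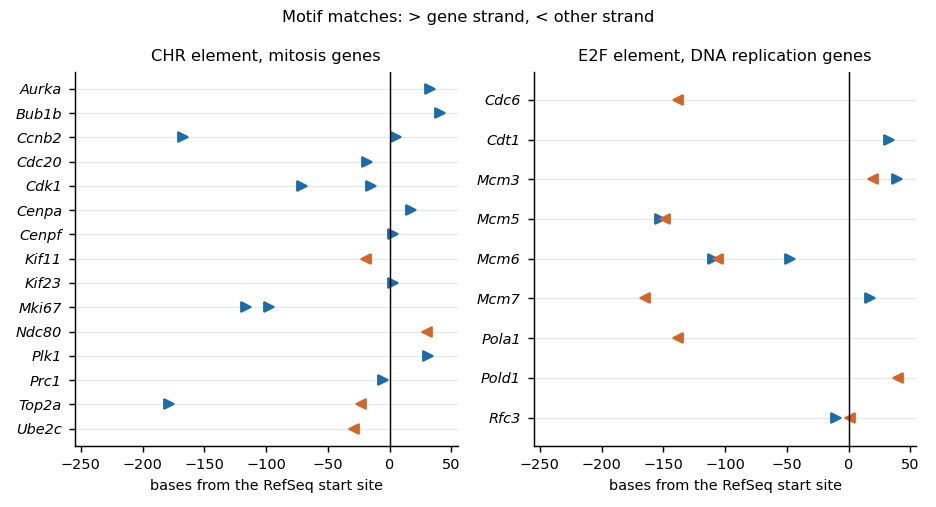
Positions of CHR matches in the windows of mitosis genes (left) and of E2F matches in those of DNA replication genes (right), in bases from the RefSeq start site (vertical line). Right-pointing marks are matches on the gene's strand and left-pointing marks are matches on the other strand. Of the 19 CHR matches, 16 lie from 100 bases before to 50 bases after the start, and of the 15 E2F matches, 8 do.

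Mcm3 and Mcm5, subunits of the MCM helicase that opens DNA at replication origins, are the E2F examples. Mcm3 stood at 25.8, 40.4, 31.7 and 19.1 CPM with bFGF, against 10.2, 7.61, 12.1 and 7.88 CPM in SS, and rose by 1.62 ± 0.19 (adjusted p = 8.43e-05). Mcm5 stood at 18.3, 28.4, 22.4 and 12.5 CPM with bFGF, against 5.62, 4.03, 9.95 and 3.19 CPM in SS, and rose by 1.92 ± 0.32. Neither gene had overlapping groups, and number 2 had the highest bFGF level of both. Uhrf1, which brings maintenance methylation to new DNA, rose by 2.0 ± 0.33, and the flap nuclease Fen1 by 0.94 ± 0.16. Without number 4 the same number of members, 26, rose. Without number 1 and without number 2 only 6 did.

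Cdk1, the kinase that starts mitosis, stood at 21.3, 27.2, 24.6 and 20.7 CPM with bFGF, against 12.9, 10.2, 16.6 and 6.9 CPM in SS. It rose by 1.07 ± 0.2 (adjusted p = 0.00259), the smallest change of the mitosis list. Ndc80, which ties kinetochores to microtubules, stood at 7.43, 10.7, 8.54 and 7.97 CPM with bFGF, against 2.59, 0.784, 4.33 and 0.391 CPM in SS. It rose by 2.53 ± 0.53. In both genes the SS libraries of numbers 1 and 3 were above those of numbers 2 and 4.

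The same split ran through the whole mitosis list. Mki67, which codes for the proliferation marker Ki-67, stood at 63.8, 93.4, 87.6 and 68.9 CPM with bFGF, against 22.4, 6.34, 39.7 and 4.89 CPM in SS, and rose by 2.61 ± 0.55 (adjusted p = 0.00439). Summed over the 25 genes, the level was 457, 707, 611 and 564 CPM with bFGF, against 217, 95.0, 361 and 70.3 CPM in SS. The median difference between bFGF and SS was 1.07 in number 1 and 0.75 in number 3, and it was 3.09 in number 2 and 3.28 in number 4. The difference was larger in the numbers whose SS library was lower. Summed leukocyte markers split the numbers alike, at 320, 93.0, 705 and 71.2 CPM with bFGF against 351, 111, 777 and 69.6 CPM in SS, and their part in the SS level of mitosis genes was not tested. In bulk RNA, fewer cycling cells and less mitotic RNA per cell cannot be told apart. Without number 4, 22 of the 25 rose, without number 3 all 25 did, and without number 1 or number 2 it was 0.

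**Figure D3:**
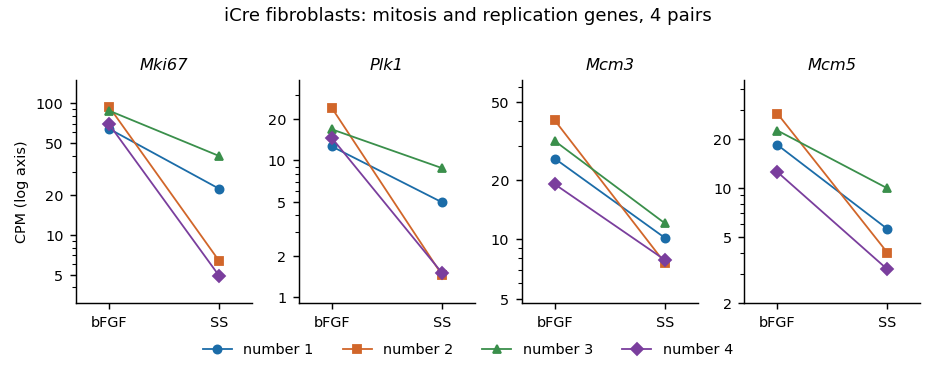
Levels of 2 mitosis genes and 2 DNA replication genes in iCre fibroblasts, in CPM on a log axis, with bFGF on the left and SS on the right and a line for each replicate number. In Mki67, Plk1, Mcm3 and Mcm5 each bFGF library lies above all SS libraries, and the SS libraries of numbers 2 and 4 are the lowest.

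Of 17 regulators of G1, the stage in which growth factors act, 3 rose and 2 fell, beside 6.8% and 5.42% of all genes. Without number 4 it was 6 and 4, and without number 1 or number 2 it was 0 and 0. Ccnd1, which encodes cyclin D1, stood at 2600, 1740, 2980 and 496 CPM with bFGF, against 1030, 366, 1360 and 222 CPM in SS. The bFGF library was higher in each pair, but the groups overlapped because number 4 was low in both. Ccnd1 rose by 1.47 ± 0.29 (adjusted p = 0.00302). Cdk2, the partner of cyclin E, rose by 0.47 ± 0.09 and the pocket protein gene Rbl1 by 0.76 ± 0.19. Cdkn1b, which encodes the inhibitor p27, fell by 0.41 ± 0.1, and the pocket protein gene Rbl2, whose product keeps resting cells out of the cycle, fell by 0.38 ± 0.09. Cdkn1a, which encodes p21, had a difference of -0.06 (adjusted p = 0.717). Ccnd2 (0.29, adjusted p = 0.0924) and Cdk6 (0.38, adjusted p = 0.0718) missed the threshold and passed without number 4.

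Of 16 FoxO target genes, which rise when growth factor input to AKT is withdrawn, 7 fell and 0 rose (5.42% of all genes fell), with a list median of -0.39. Foxo1 itself stood at 29.4, 23.6, 26.7 and 26.4 CPM with bFGF, against 51.7, 48.0, 39.6 and 32.9 CPM in SS, without overlap, and fell by 0.68 ± 0.11. Klf15 fell by 1.04 ± 0.2 and Trim63, a ubiquitin ligase of muscle wasting, by 1.67 ± 0.45. Pik3ip1, an inhibitor of PI3 kinase, stood at 21.7, 24.0, 14.8 and 51.4 CPM with bFGF, against 55.6, 74.4, 34.4 and 44.5 CPM in SS. It fell by 1.08 ± 0.28 although number 4 went the other way. The list median was -0.69, -0.91, -0.36 and -0.01 in numbers 1 to 4, and 10 members fell without number 4. Without number 3 only 2 fell, without number 1 it was 1, and without number 2 it was 0.

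Of 14 ligands, receptors and adaptors of the FGF system, 1 rose and 3 fell, so 4 of 14 passed beside 12.2% of all genes. These counts were 1 and 3 without number 4, 1 and 1 without number 3, and 0 and 0 without number 1 or number 2. Fgf1, the acidic FGF that binds all FGF receptors, stood at 11.0, 20.8, 8.29 and 7.19 CPM with bFGF, against 2.71, 2.43, 3.44 and 3.91 CPM in SS, and rose by 1.81 ± 0.36 (adjusted p = 0.00302). Fgf18, a ligand known from skeletal growth, stood at 4.59, 3.06, 2.8 and 1.55 CPM with bFGF, against 22.2, 18.4, 15.4 and 9.33 CPM in SS, and fell by 2.47 ± 0.51. Fgfr2 stood at 13.5, 16.3, 9.06 and 22.5 CPM with bFGF, against 34.5, 42.0, 25.1 and 41.7 CPM in SS, and fell by 1.31 ± 0.31. None of the 3 genes had overlapping groups. The adaptor Frs2 fell by 0.34 ± 0.11. Fgfr1, the main FGF receptor of fibroblasts, had a difference of 0.15 (adjusted p = 0.494), and Fgf2, the gene for bFGF itself, one of 0.38 (adjusted p = 0.285).

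Ligands of other growth factor receptors moved in both directions, with 3 of 20 genes that rose and 4 that fell, so 7 of 20 passed beside 12.2% of all genes. Without number 1 or number 2 none passed, and without number 4 it was 3 and 5. Hbegf, an EGF receptor ligand, stood at 103, 71.0, 100 and 18.9 CPM with bFGF, against 25.2, 14.2, 25.4 and 13.0 CPM in SS, and rose by 1.67 ± 0.32 (adjusted p = 0.00281). Number 4 had the smallest gain. Ereg, a second EGF receptor ligand, rose by 1.44 ± 0.38 and was lower with bFGF in number 4 alone, at 20.4 CPM against 28.2 CPM in SS. Hgf, the ligand of the MET receptor, rose by 1.11 ± 0.23. Vegfd, a growth factor for lymphatic vessels, stood at 99.7, 133, 106 and 54.0 CPM with bFGF, against 307, 495, 252 and 322 CPM in SS, and fell by 1.73 ± 0.44 without overlap. Vegfb fell by 0.43 and the PDGF receptor gene Pdgfrb by 0.48.

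Among genes with a mean of at least 1 on the log2 CPM scale, one direction in all 4 pairs and no overlap, the 15 with the largest rise hold cell cycle genes (Mki67, Pclaf, Iqgap3, Ndc80, Knl1, Plk1, E2f8, Troap), the ERK targets Spry4 and Etv4, and others with roles outside growth control. Sele, the adhesion molecule E-selectin, stood at 14.8, 26.7, 17.5 and 3.57 CPM with bFGF, against 1.58, 0.97, 1.66 and 1.12 CPM in SS. The rule itself required all bFGF libraries to lie above all SS libraries. The change of 3.34 ± 0.41 (adjusted p = 0.000107) was the largest of the 15. Esm1, an endothelial proteoglycan, stood at 85.0, 372, 29.6 and 33.7 CPM with bFGF, against 15.9, 27.6, 8.4 and 14.2 CPM in SS, and rose by 2.46 ± 0.57. Number 2 was far above the other bFGF libraries. Clec14a, a lectin of endothelial cells, rose by 2.36 ± 0.49, and Ivl, which encodes involucrin of the cornified envelope, by 2.58 ± 0.53 (5.98-fold, and 9.09-fold without number 4). Without number 4 the kinetochore gene Knl1 changed by 3.64-fold in place of 5.74-fold and the spindle gene Troap by 3.38-fold in place of 5.13-fold. Ifi27l2b, named for its likeness to an interferon-induced gene, rose by 2.55 ± 0.59.

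Sele, Esm1 and Clec14a are genes of endothelial cells, and the endothelial marker list moved in both directions. Of 11 endothelial markers 8 were tested, of which Cdh5 rose (1.35) and Tek (-0.93) and Erg (-1.61) fell. Thus 3 of 8 passed, beside 12.2% of all genes. Erg was at most 1.06 CPM and did not pass without number 4 (adjusted p = 0.167). Their summed level was 12.6 to 16.1 CPM with bFGF and 18.9 to 25.7 CPM in SS. Tek was the largest part of this sum, with a mean of 7.79 CPM with bFGF and 15.2 CPM in SS. The highest levels in any of the 8 libraries were 20.2 CPM for Tek, 5.5 CPM for Kdr, 3.7 CPM for Egfl7 and 2.53 CPM for Cdh5. The other markers had at most 1.66 CPM, among them Cldn5 (0.0559 CPM), Tie1 (0.289 CPM) and Pecam1 (1.13 CPM).

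Of the 15 genes with the largest fall by the same rule, 14 are named here. Clec3b, which encodes the plasminogen-binding protein tetranectin, fell by 2.42 ± 0.55, and Akr1c14, a hydroxysteroid dehydrogenase, by 2.37 ± 0.42. Agtr1a, the angiotensin II receptor through which angiotensin acts on cardiac fibroblasts, stood at 0.778, 1.27, 1.02 and 1.42 CPM with bFGF, against 4.9, 5.71, 3.59 and 5.67 CPM in SS. It fell by 2.16 ± 0.46, and groups without overlap were required by the rule. The matrix proteins Tnxb (-1.62 ± 0.3) and Fbln7 (-1.7 ± 0.25) fell, and so did the secreted protein Ism1 (-2.03 ± 0.62) and the adenylyl cyclase Adcy1 (-1.88 ± 0.51). The others of these 14 were Fgf18 and Vegfd, Xkr4, Aff3, Fads6, Rasl12 and Nckap5, at -2.47 to -1.66.

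Matrix genes that passed went in both directions. Of 17 fibrillar collagen and collagen enzyme genes 1 rose and 1 fell (median -0.03), of 18 basement membrane and other collagen genes 2 rose and 1 fell, and of 29 glycoproteins and proteoglycans 3 rose and 5 fell (median -0.17). Beside 12.2% of all genes, 2 of 17, 3 of 18 and 8 of 29 passed in these lists. Without number 4 the glycoprotein list had 5 that rose and 9 that fell, and without number 1 or number 2 the 3 lists had 0 calls. Col1a1 had a mean of 7680 CPM with bFGF and 8340 CPM in SS (adjusted p = 0.76). Plod2, the lysyl hydroxylase of collagen telopeptides, stood at 370, 362, 376 and 177 CPM with bFGF, against 630, 707, 618 and 321 CPM in SS, and fell by 0.82 ± 0.16. Loxl3, a collagen crosslinking oxidase, rose by 0.73 ± 0.14. The small proteoglycan gene Ogn stood at 165, 92.0, 137 and 343 CPM with bFGF, against 446, 654, 329 and 1570 CPM in SS, and fell by 1.87 ± 0.37. Thbs2, which limits vessel growth, fell by 1.38 ± 0.27. Has2, the main hyaluronan synthase of mesenchyme, stood at 15.2, 18.5, 15.5 and 7.92 CPM with bFGF, against 3.36, 3.96, 5.58 and 4.36 CPM in SS, and rose by 1.65 ± 0.32 without overlap. The phosphoprotein Spp1 (osteopontin) rose by 1.33 ± 0.36.

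Of 17 contractile and myofibroblast genes, 1 rose and 0 fell, beside 6.8% and 5.42% of all genes. The gene that rose was Smtn (smoothelin), by 0.75 ± 0.19. Cnn1, which encodes calponin, stood at 1.28, 1.55, 1.94 and 1.39 CPM with bFGF, against 1.66, 4.37, 2.15 and 9.42 CPM in SS (-1.22 ± 0.57, adjusted p = 0.167). The list median was -1.0 in number 4 and lay between -0.08 and 0.15 in the other numbers. Without number 4, 2 members rose and 3 fell, and without any other number it was 0 and 0.

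Of 18 TGFb target genes, 2 rose and 2 fell, so 4 of 18 passed beside 12.2% of all genes. Without number 4 it was 8 and 4, and without number 1, 2 or 3 it was 0 and 0. The ligand gene Tgfb1 rose by 0.54 ± 0.15 and the ligand gene Tgfb3 fell by 0.46 ± 0.12. Smad6, an inhibitor of BMP signalling and itself a target of it, fell by 0.82 ± 0.22. In the BMP list 1 of 15 rose and 3 fell, so 4 of 15 passed beside 12.2% of all genes. It was 1 and 6 without number 4, and 1 and 0 without number 1 or number 2. Chrdl1, a secreted BMP antagonist, stood at 0.233, 0.0687, 0.154 and 0.472 CPM with bFGF, against 2.06, 3.58, 0.74 and 4.33 CPM in SS, and fell by 3.76 ± 0.9 (adjusted p = 0.0095). Bmp4 fell by 0.99 ± 0.32, and Inhba, the activin A subunit gene, rose by 1.12 ± 0.18.

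Of 15 matrix metalloproteinase and plasminogen system genes, 3 rose and 2 fell, so 5 of 15 passed beside 12.2% of all genes. It was 8 and 4 without number 4, 0 and 0 without number 1, and 1 and 0 without number 2. The urokinase receptor gene Plaur stood at 14.5, 30.4, 14.9 and 7.13 CPM with bFGF, against 3.8, 4.7, 4.36 and 4.22 CPM in SS, and rose by 1.84 ± 0.32 (adjusted p = 0.00156) without overlap. The tissue activator Plat rose by 0.66 ± 0.2 and the inhibitor Serpinb2 by 2.0 ± 0.54 (4.01-fold, and 7.47-fold without number 4). Among the matrix metalloproteinases Mmp11 (-1.25 ± 0.31) and Mmp2 (-0.53 ± 0.12) fell.

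Of 23 cytokine and chemokine genes, 5 rose and 1 fell, beside 6.8% and 5.42% of all genes. Without number 4 it was 8 and 1, and without number 1 or number 2 it was 0 and 0. Ccl2, the monocyte chemoattractant, stood at 132, 106, 129 and 71.6 CPM with bFGF, against 24.0, 15.0, 29.4 and 44.7 CPM in SS, and rose by 1.87 ± 0.36 (adjusted p = 0.00271). Its neighbour Ccl7 rose by 1.44 ± 0.24, and neither had overlapping groups. Cx3cl1, the membrane-bound chemokine fractalkine, stood at 280, 261, 225 and 163 CPM with bFGF, against 95.2, 67.5, 91.4 and 61.0 CPM in SS, and rose by 1.55 ± 0.3. The epithelial alarmin Tslp (1.99 ± 0.41) and the IL-6 family cytokine Lif (1.27 ± 0.33) rose, and the neutrophil chemokine Cxcl5 fell by 1.14 ± 0.26. Ccl2 changed by 3.65-fold over all numbers and by 5.57-fold without number 4.

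Of 18 NFkB targets and inhibitors 3 rose, beside 6.8% of all genes. They were Nfkb2 (0.52), Traf1 (1.45) and the adhesion molecule Vcam1 (0.82). Without number 4 the list had 6 that rose, and without number 1 or number 2 it had 0. Of 23 interferon-stimulated genes 0 rose and 0 fell, with a median of -0.07, and without number 4 it was 0 and 2. Of 13 complement genes 2 fell, among them the protease gene C1ra (-0.72), beside 5.42% of all genes. Without number 1 or number 2 it was 0.

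Few metabolic genes passed over all numbers, while 6.8% of all genes tested rose and 5.42% fell. Without number 1, 2 or 3, 0 of the glycolysis, ribosome biogenesis and cholesterol lists passed. Of 21 glycolysis genes 1 rose, the glucose transporter Slc2a1, at 72.2, 80.0, 74.7 and 65.1 CPM with bFGF against 51.0, 52.1, 52.8 and 60.5 CPM in SS (0.42 ± 0.13, adjusted p = 0.035). Ldha, which makes lactate from pyruvate, had a difference of 0.6 ± 0.26 (adjusted p = 0.125). Without number 4, 9 glycolysis genes rose and 1 fell. Of 22 ribosome biogenesis genes 5 rose, among them the snoRNP proteins Nop56 (0.54) and Nop58 (0.55), and 16 did without number 4, the library pair in which this list had a median of -0.12. Mthfd1l of mitochondrial one-carbon metabolism rose 2.0-fold, Srebf1 of lipid synthesis by 0.46 and the ER chaperones Hyou1 and Manf by 0.41 and 0.47. Cholesterol synthesis had 0 calls among 24 genes (median 0.15), and 4 members rose without number 4.

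Of 14 IGF axis genes 4 fell and 0 rose (median -0.51), beside 5.42% of all genes that fell. Without number 4, 5 fell, without number 3 it was 1, and without number 1 or number 2 it was 0. Igfbp4 stood at 38.1, 73.5, 39.1 and 825 CPM with bFGF, against 85.8, 269, 83.7 and 1000 CPM in SS, with number 4 far above the others in both groups. It fell by 1.15 ± 0.3, and Pappa, the protease that cuts it, fell by 0.96 ± 0.27. Of 20 Wnt axis genes 1 rose and 3 fell (median -0.41), so 4 of 20 passed beside 12.2% of all genes. It was 2 and 6 without number 4, and 0 and 1 without number 1 or number 2. Sfrp2, a secreted Wnt modulator, fell by 2.46 ± 0.66 and Nkd1, a feedback inhibitor induced by Wnt, by 1.35 ± 0.21. The ligand gene Wnt2 stood at 5.87, 16.7, 5.27 and 0.393 CPM with bFGF, against 0.769, 2.91, 0.703 and 0.503 CPM in SS, and rose by 2.31 ± 0.6 although number 4 did not share the rise. The YAP list of 14 genes holds targets and also pathway members such as Yap1, Tead1 and Wwtr1. In it 3 rose and 1 fell, so 4 of 14 passed beside 12.2% of all genes. It was 5 and 3 without number 4 and 1 and 0 without number 1 or number 2. Wwtr1, the gene for the YAP relative TAZ, rose by 0.65 ± 0.1 and Nuak2 by 1.51 ± 0.38. The target Ankrd1 rose by 0.75 ± 0.19, although it was lower with bFGF in number 4. Of 11 Notch axis genes 0 rose and 0 fell, and without number 4 it was 1 and 2.

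Stress and resting-state lists had 0 to 4 calls each, beside 12.2% of all genes, and 0 without number 1 or number 2. Of 17 p53 targets 1 rose and 2 fell, and without number 4 it was 4 and 6. Plk3, a polo-like kinase, rose by 1.11 ± 0.2, and Trp53inp1, a p53-induced regulator of arrest and autophagy, fell by 0.72 ± 0.16. Of 16 NRF2 targets 2 fell, the ferritin gene Ftl1 (-0.3) and the glutathione transferase gene Gstm1 (-0.69). Of 14 HIF targets outside glycolysis Ndrg1 fell (-0.86), and of 17 ATF4 targets 0 rose and 0 fell. Without number 4 the NRF2 list had 2 that rose and 1 that fell, the HIF list 3 and 0 and the ATF4 list 4 and 2. Of 20 genes of resting fibroblasts 2 rose and 2 fell, and without number 4 it was 3 and 7. Gfpt2, which starts the hexosamine pathway, stood at 281, 409, 266 and 226 CPM with bFGF, against 88.4, 106, 98.5 and 143 CPM in SS, and rose by 1.35 ± 0.24. Its groups did not overlap. Of 11 TIMP and ADAMTS genes Adamts5, an aggrecan-degrading protease, fell by 0.56 ± 0.18, and without number 4 it was 2 that rose and 3 that fell.

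**Figure D4:**
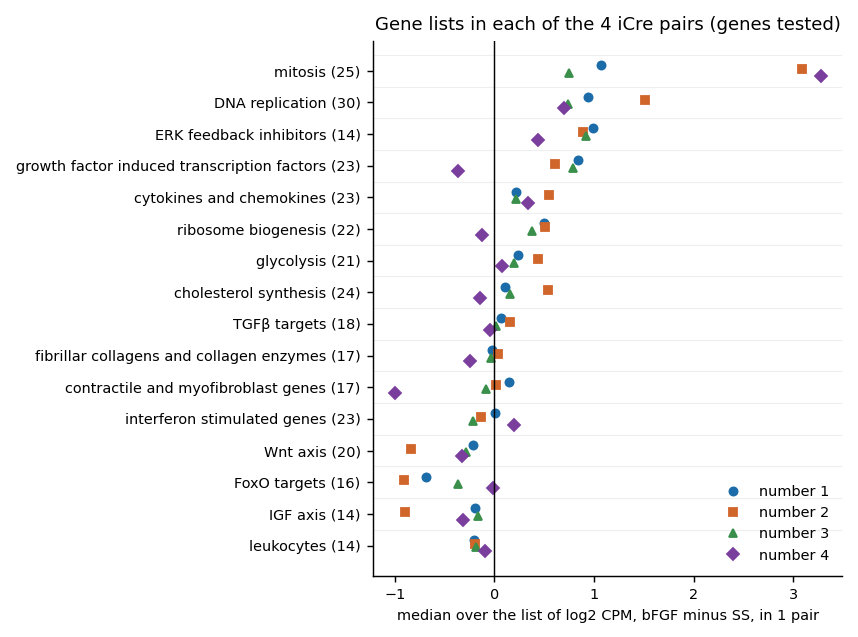
Median log2 difference in CPM between the bFGF and the SS library of each replicate number, for 16 gene lists with the number of genes tested in parentheses. Each mark is 1 pair of iCre libraries. The mitosis list lies at 0.75 to 3.28, numbers 2 and 4 are highest in it, and number 4 lies apart from the rest in the transcription factor and contractile lists.

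The cultures carried fibroblast identity genes at high levels in both groups. Of 10 such genes 1 rose, Thy1, at 410, 528, 465 and 506 CPM with bFGF against 305, 293, 377 and 302 CPM in SS (0.58 ± 0.12). Pdgfra had a mean of 720 CPM with bFGF and 730 CPM in SS. Of 14 leukocyte markers 0 rose and 0 fell, and 12 were lower with bFGF. Cardiomyocyte markers summed to 6.35 to 23.8 CPM with bFGF and 22.6 to 92.2 CPM in SS, most of it from Tnnt2 (-1.47, adjusted p = 0.0651), and Nppa was at 0 in all 8 libraries. Of the mural markers Cspg4 rose (1.44) and Pdgfrb fell, of the mesothelial markers Upk3b and Lrrn4 fell at low levels, and the Schwann markers had 0 calls. Over all numbers 12.2% of all genes passed, and without number 1 or number 2 none of the marker lists had a call.

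The bFGF response of iCre cells was set beside that of LacZ cells, to ask whether recombination at Pkm alters it. LacZ libraries are named here by their titles, while their tags read iCre_TNFa for those titled FGF and LacZ_bFGF for those titled SS. Of the 1139 genes that rose in iCre cells, 1138 had the same direction in LacZ cells and 893 passed there too, which is 78.4% of the iCre genes and 69.8% of the 1279 that rose in LacZ cells. Of the 908 that fell, 905 had the same direction and 605 passed, 66.6% of the iCre genes and 63.7% of the 950 that fell in LacZ cells. The test of the difference itself found 0 genes (0% of 16760) at an adjusted p under 0.05 in edgeR. It had 153 genes (0.913%) at an unadjusted p under 0.05, and DESeq2 had 0 and 146. An alternative chosen after seeing the data, which blocks on condition and number together, had 0 and 349 (2.08%). Chance alone would give a share of about 0.05. These fits were therefore conservative, and their counts of 0 do not measure how alike the responses were. The median SE of the difference was 0.17 at a mean log2 CPM of at least 1, and differences well above this size could also be missed.

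Single genes show the likeness and its spread. Spry4 changed by 2.51 in iCre cells and 3.1 in LacZ cells, Etv4 by 2.5 and 2.94, Mki67 by 2.61 and 2.21, and Fgf18 by -2.47 and -2.4. The median of the ERK feedback list was 0.75 in iCre cells and 1.01 in LacZ cells, and that of the mitosis list 2.07 and 1.93. The lowest unadjusted p of a difference in the feedback list was 0.0758, and in the mitosis list it was 0.502. For Pkm the difference between the responses was 0.08 ± 0.29. A p that misses the threshold does not show that the responses were equal.

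**Figure D5:**
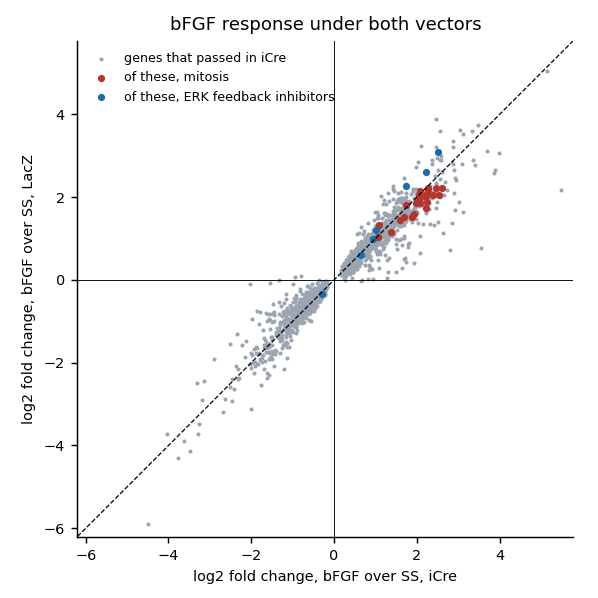
Log2 fold changes with bFGF in iCre cells (horizontal) and in LacZ cells (vertical) for the genes that passed in iCre cells, with mitosis genes in red and ERK feedback genes in blue. The dashed line marks equal changes. Of the 1139 genes that rose in iCre cells 1138 lie above 0 on the vertical axis, and of the 908 that fell 905 lie below it.

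Among the 4 iCre conditions, bFGF gave the highest level for 406 genes (2.42%) and the lowest for 42 (0.251%), by tests against SS, TGFb and IL-1b. The 406 hold 48 of the 55 mitosis and replication genes tested. Mki67 averaged 78.3 CPM with bFGF, 9.34 CPM with TGFb and 11.2 CPM with IL-1b. Ranked by the smallest of the 3 changes, Ackr4 came first. It encodes an atypical receptor that scavenges the chemokines CCL19 and CCL21. Ackr4 stood at 107, 59.9, 83.9 and 6.01 CPM with bFGF, against 13.3, 4.66, 14.6 and 1.4 CPM in SS, and averaged 1.41 CPM with TGFb and 3.29 CPM with IL-1b. Among the 42 were Gadd45b and Gadd45g, stress sensors that activate p38 and JNK. Gadd45b stood at 11.6, 12.3, 9.09 and 13.3 CPM with bFGF, against 31.1, 25.9, 27.4 and 18.6 CPM in SS, and averaged 111 CPM with TGFb and 40.8 CPM with IL-1b. It fell by 1.15 ± 0.14 against SS. Npy1r, a neuropeptide Y receptor, the RAS-like gene Rasl12 and the RAS exchange factor gene Rasgrp3 were also lowest with bFGF.

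The 3 stimuli share their SS libraries, and list medians against SS are set side by side. For the cholesterol list the median was 0.15 for bFGF, 2.1 for TGFb and 0.74 for IL-1b. The cytokine list had medians of 0.32 for bFGF, -0.25 for TGFb and 3.54 for IL-1b, and the contractile list had -0.12 for bFGF, 1.46 for TGFb and -0.75 for IL-1b. The ERK feedback list had 0.75 for bFGF, -0.17 for TGFb and 0.06 for IL-1b, and the mitosis list had 2.07 for bFGF, -0.7 for TGFb and -0.28 for IL-1b. Other lists moved in 1 direction with all 3 stimuli. In the same order, the FoxO list had -0.39, -0.82 and -0.71 and the IGF list -0.51, -0.53 and -0.64. The Wnt list had -0.41, -0.76 and -0.69, and the transcription factor list 0.53, 0.51 and 0.19.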

How the data were processed

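RNA from cultured mouse cardiac fibroblasts was measured by poly(A) RNA-seq, with 4 libraries in each group used. The authors deposited raw read counts per gene, made with HTSeq 0.10.0 on mm10/GRCm38 after FastQC 0.10.1, per the submitters' processing notes. For the aligner, the strand setting and the annotation used, the entry is not given in the sources used here, so overlapping and antisense genes cannot be told apart. Of 55414 gene IDs, 52133 matched GENCODE M21 symbols. Depth limits precision most for genes near 1 CPM.

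Counts were fitted in edgeR 4.0.16 (TMM, filterByExpr, robust quasi-likelihood; R 4.3.3) over all 32 libraries, with 1 mean per group and the replicate number as a block within each vector. P-values were adjusted by Benjamini-Hochberg over 16760 genes at a threshold of 0.05. The script was tested on simulated data. The block follows from the pairing, for which every pair's correlation was over 0.1. Among the 8 iCre bFGF and iCre SS libraries none was a duplicate of another: the lowest chi-square per degree of freedom between them was 11.9. The other libraries were not checked for this. Named genes are Pkm and Map3k7, up to 15 risers and 15 fallers by size, up to 6 each way for extremes, and up to 6 members of each list by p, or any member of the ERK feedback, transcription factor, FGF, G1 and marker lists. Others were chosen after their values were seen, and 3 named genes are not reported here. Members, lists and rules were chosen with earlier results of these data known. Alternatives were DESeq2 1.42.0, other blocks, scaling by totals, no filter, a 2-fold threshold and leaving out libraries.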

Additional observations from a re-analysis of the deposited data

Results flagged for a closer look

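In 30 of the 308 groups of 4 checked over named genes, the highest or lowest library lay apart from the others by Dixon's ratio of gap to range, at its 95% critical value. Chance gives about 1 in 20 groups, and genes of 1 library are not independent. Most of these libraries carry number 4.

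The bFGF library of number 4 was the highest of its group for Igfbp4 (825 CPM), Lrig1 (261 CPM), Mmp11 (92.2 CPM), Pdgfra (1410 CPM), Tgfb3 (203 CPM), Thbs2 (1510 CPM) and Fzd6 (47.0 CPM). It was the lowest for Dusp5 (5.56 CPM), Ier2 (15.2 CPM), Lif (8.24 CPM), Hyou1 (164 CPM), Ldha (317 CPM), Mthfd1l (20.2 CPM), Plod2 (177 CPM), Smtn (105 CPM), Tnnt2 (2.15 CPM) and Tnfrsf12a (19.9 CPM). The SS library of number 4 was the highest of its group for Etv5 (84.5 CPM), Junb (55.3 CPM), Spred2 (55.4 CPM), Spry2 (119 CPM), Fgf2 (210.0 CPM), Adcy1 (16.5 CPM) and Fzd6 (49.9 CPM).

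Libraries of other numbers lay apart for 6 genes. Esm1 was high in the bFGF library of number 2 (372 CPM) and Rbl2 low in that of number 3 (54.8 CPM). Among SS libraries E2f8 (2.33 CPM) and Thy1 (377 CPM) were high in number 3, Wnt2 (2.91 CPM) in number 2 and Wwtr1 (198 CPM) in number 1.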

How the results depend on the processing

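The counts depended on the block and on single numbers. Without the replicate block 242 genes rose, 126 fell, 94 were highest and 6 lowest with bFGF. A fit of the 8 compared libraries alone, with the block, called 776 genes that rose and 662 that fell. These hold 609 of the 1139 and 472 of the 908 genes called in the fit of all 32 libraries. With no filter on low counts 572 fell and 23 were lowest. With a threshold of at least 2-fold the counts were 416, 204, 230 and 8. When single libraries or numbers were left out, genes that rose ranged from 54 to 2376, genes that fell from 36 to 1955, genes highest with bFGF from 24 to 516 and genes lowest with bFGF from 3 to 94. The lowest counts came without number 1 or 2 and the highest without number 4. The interaction stayed at 0 under the alternatives run. Of the 153 named genes, 15 kept direction and call in all 18 alternatives. Of the 132 with a call, 85 lost it without the block, 117 without number 1, 118 without number 2 and 4 without number 4.

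Directions turned for 5 genes that did not pass. Over the fits that leave out libraries, Fos ranged from -0.07 to 0.45, and it was -0.04 without bFGF library 1, -0.01 without SS library 1, -0.05 without SS library 3 and -0.03 without number 3. Cdkn1a ranged from -0.09 to 0.01, Col1a1 from -0.30 to 0.05, Spry1 from -0.11 to 0.46 and Pdgfra from -0.14 to 0.02. The cause of these shifts was not tested.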

Other observations

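Further gene families were chosen after their values were seen and are given as a description. Of 9 frizzled genes tested, which encode Wnt receptors, 5 fell and 0 rose, beside 5.42% of all genes that fell, with a median of -0.73 in iCre cells and -0.73 in LacZ cells. The genes that fell were Fzd1, Fzd2, Fzd5, Fzd6 and Fzd8. Of 17 TNF receptor family genes with a Tnfrsf symbol 7 rose and 0 fell, beside 6.8% of all genes that rose. Among them was Tnfrsf12a, the receptor for TWEAK. Family members with other symbols were not counted, such as Edar (-4.04) and Cd40 (1.06), which both passed. Of 7 small proline-rich genes 4 rose and 0 fell, beside 6.8% of all genes that rose. Their median was 1.69 in iCre cells and 1.36 in LacZ cells. The products of these genes are crosslinked into the cornified envelope together with involucrin. Without number 1 or number 2 each of the 3 families had 0 calls. Without number 4, 6 frizzled genes fell, 8 genes with a Tnfrsf symbol rose and 1 fell, and 4 small proline-rich genes rose. Families picked for their values differ from all genes by that choice. Reads of the closely related Sprr genes may be shared between copies, so single members are uncertain.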
